A study of Mus musculus with 65 samples.

Results

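Retinal RNA-Seq of adult C57BL/6J mice was examined over the first days after the CSF1R inhibitor PLX5622 was taken out of the diet, before microglia are back in number. The libraries were chosen by their labels. Those whose titles end in RE and whose descriptions give repopulation day 3, 5 or 7 (REPOP3, REPOP5 and REPOP7, n = 3 each, 9 libraries termed early withdrawal) were compared with RE libraries taken after 14 or 21 days on PLX5622 (DEP14 and DEP21, n = 3 each, 6 libraries termed late depletion). These are 15 of the 65 libraries of the series. All 15 retinas came from mice that had been fed PLX5622. Withdrawal was a switch to the AIN-76A control diet, so the early withdrawal mice were on control diet when sampled and the late depletion mice on the drug diet. A further 3 RE libraries of control diet mice (CD) serve as a scale. In the scheme of the study the drug diet was withdrawn after 14 days, which puts REPOP3, REPOP5 and REPOP7 at 17, 19 and 21 days from the start of the diet. REPOP7 is thus matched to DEP21 in time on protocol, and REPOP3 and REPOP5 lie between DEP14 and DEP21. RNA came from homogenate of the whole retina. The labels do not say whether a library holds 1 mouse or 1 eye. The study counts 65 mice over its 16 groups, as many as the series has libraries. By that count each library is a separate mouse, and p-values measure the spread between these libraries.

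CSF1R is the receptor tyrosine kinase that microglia need to stay alive. Its ligands CSF1 and IL-34 are made by neurons and glia. When a CSF1R inhibitor is withdrawn, microglia refill the tissue by division and by migration, and a retina that has just been taken off the drug can therefore differ from a depleted one through the loss of the drug, through the first returning cells, or through both. Microglia are known by the fractalkine receptor gene Cx3cr1, by Tmem119 and P2ry12, by the complement genes C1qa, C1qb and C1qc and by the protease gene Ctss. Dividing cells are known by Mki67, Top2a, Cdk1 and Ccnb1. In homogenate, fewer cells of a type and less RNA per cell cannot be told apart.

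The total count per library ranged from 7572657 to 8760443 (median 8176646) over the 15 libraries, and the limit that a count of 0 allows, 3 counts, lay between 0.342 and 0.396 CPM (counts scaled to the library total). Floors and the exact intervals of pooled shares and ratios cover counting error only, whereas intervals of log2 fold changes come from the fit and include the spread between libraries. Markers of the retina were present in each of them, with Rlbp1 (Müller glia) between 1986 and 2627 counts and Arr3 (cones) between 1498 and 2194. DEP14 replicate 2 carried lens and ciliary body transcripts, with a summed level of lens crystallin genes of 48.6 CPM against at most 7 CPM in any other of these libraries. REPOP3 replicate 4 stood apart on the second principal component. The 5 libraries highest on the first component were 1 of each group and held the highest summed levels of 29 phototransduction genes (71120 to 76507 CPM, against 58900 to 67123 CPM in the other 10). The part of these differences in the results was not tested beyond leaving libraries out and fitting the first component as a covariate.

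No gene passed a test between early withdrawal and late depletion. Of 23035 genes tested, 0 (0%) were differentially expressed genes (DEGs) by the thresholds of the study, a Benjamini-Hochberg FDR under 0.01 with an absolute log2 fold change above 1, and 0 (0%) passed an FDR of 0.05 with no fold threshold (edgeR's quasi-likelihood test, 9 against 6 libraries). The lowest FDR was 1. Before correction, 763 genes (3.31%) had a p under 0.05, 326 higher (1.42%) and 437 lower (1.9%) after withdrawal. With DESeq2 there were 0 DEGs, and 480 genes had an unadjusted p under 0.05. Leaving out DEP14 replicate 2 and REPOP3 replicate 4 together also gave 0 DEGs, with 1175 genes at an unadjusted p under 0.05. The depth was sufficient to bound most of these differences. Among 12232 genes with a mean level of at least 5 CPM, the 95% interval of the log2 fold change lay within 0.5 of 0 for 11775 (96.3%) and within 1 of 0 for 12215 (99.9%), each interval taken singly. Among the 7334 tested genes under 1 CPM, only 1092 (14.9%) had an interval within 1 of 0. A change of that size was thus not detectable for most genes at that level. P2ry12, Ctss, Cdk1 and Ccnb1 were among these genes. The other defining microglia genes and mitotic genes named above had counts in too few libraries to be tested. They have no fold change or interval in this comparison.

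**Figure D1:**
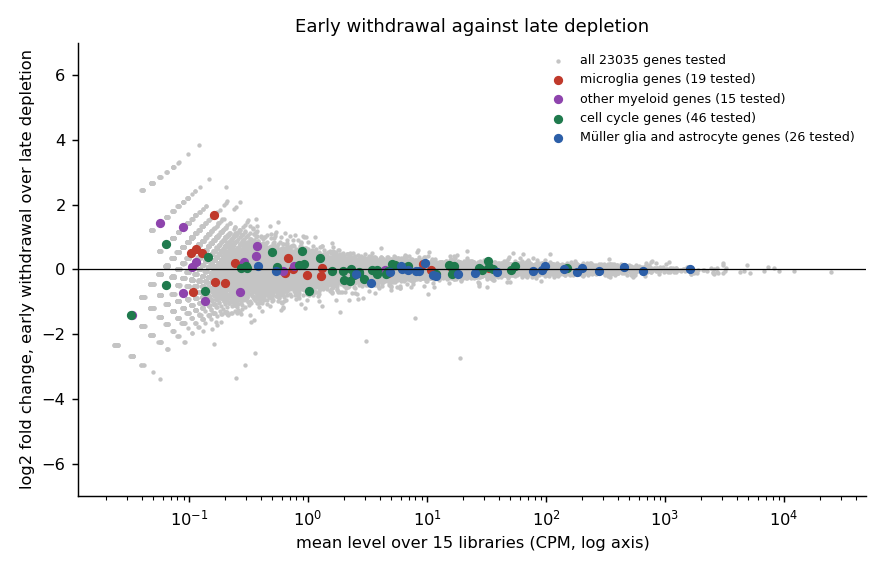
Log2 fold change of early withdrawal over late depletion (vertical axis) against the mean level over the 15 libraries (horizontal axis, CPM, log scale). Each grey point is 1 of 23035 genes and colours mark 4 gene lists; the spread narrows with level, and no point passed an FDR of 0.05.

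The defining transcripts of microglia were nearly absent on both sides of the withdrawal. Summed over Cx3cr1, Tmem119, P2ry12, C1qa, C1qb, C1qc and Ctss, the 3 DEP14 libraries held 4, 0 and 3 counts and the 3 DEP21 libraries 0, 10 and 1. After withdrawal the sums were 3, 6 and 4 counts in REPOP3, 4, 2 and 9 in REPOP5 and 2, 3 and 2 in REPOP7. The groups overlapped throughout, and REPOP7 was the lowest of the 3 days. The same sum was 216, 190 and 264 counts in CD, 22, 24 and 66 in REPOP10 and 100, 124 and 139 in REPOP14, the next days of repopulation among RE libraries. Pooled over libraries, late depletion stood at 1.36% of the CD level (95% exact interval 0.803 to 2.17) and early withdrawal at 1.77% (1.22 to 2.48). By day the shares were 1.96% in REPOP3, 2.29% in REPOP5 and 1.05% in REPOP7, and then 17.2% in REPOP10.

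The pooled ratio of early withdrawal to late depletion for these 7 genes was 1.29 (0.714 to 2.43). This value rested on DEP21 replicate 3, which held 10 of the 18 late depletion counts, 7 of them from Ctss. Without that library the ratio was 2.39 (1.09 to 5.97), and without any other single library it lay between 1.08 and 1.39.

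Taken singly, each defining gene stayed at a few counts. Cx3cr1 was at 0 in all 6 late depletion libraries, which allows up to 1.48% of the CD level at 3 counts over the group, and had 2 counts in REPOP3 replicate 3 and 1 in REPOP5 replicate 4. C1qb was also at 0 in all 6 and had 1 count in REPOP3 replicate 4, and 1 and 2 in REPOP5 replicates 3 and 4. Tmem119 had 1 count in 1 of the 9 early libraries and 0 in the 6 late ones. Cd33, a sialic acid receptor of myeloid cells, was at 0 in late depletion and had 1 count in REPOP3 replicate 4 and 3 in REPOP7 replicate 5. P2ry12 held 5 counts over the 6 late libraries and 11 over the 9 early ones. Ctss held 10 and 11. These counts are too few for a direction to be read in any of them.

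**Figure D2:**
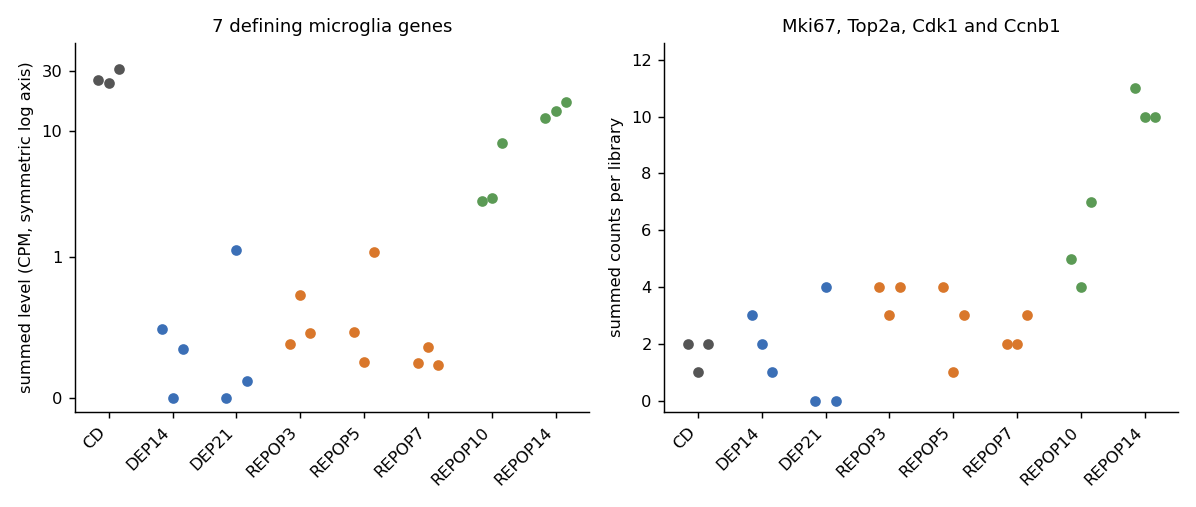
Left, summed level of 7 defining microglia genes by library (CPM, symmetric log axis, linear under 1); right, summed counts of 4 cell cycle genes by library. Each point is 1 RE library, blue for late depletion and orange for early withdrawal; DEP and REPOP3 to REPOP7 libraries overlap in both panels, and the microglia sum is at 2.78 CPM or more in REPOP10.

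Of 36 microglia genes listed, 19 had counts in enough of the 15 libraries to be tested, and 12 held 3 counts or fewer over all 9 early withdrawal libraries. None of the 19 passed an FDR of 0.05. Of them 11 had a positive and 8 a negative log2 fold change, with a median of 0.05 beside a median of 0 over all genes tested. A single member, Gpr34, had an unadjusted p under 0.05, beside 3.31% of all genes. Gpr34 encodes a lysophosphatidylserine receptor of microglia and lies on chromosome X (GRCm38, 13632089 to 13640858). It had 0, 0 and 1 counts in DEP14 and 0, 1 and 1 in DEP21. It had 2, 4 and 1 counts in REPOP3, 1, 2 and 1 in REPOP5 and 0, 4 and 2 in REPOP7, against 15, 7 and 6 in CD. The groups overlapped at 0 and 1 counts. Its log2 fold change was 1.69 ± 0.70 (SE, unadjusted p = 0.0241, adjusted p = 1 by edgeR's quasi-likelihood test), and its pooled level was 5.44% of CD in late depletion (1.06 to 17.6) and 20.5% after withdrawal (10.5 to 38.8). Pld4, an endolysosomal nuclease gene, had 4 counts over the 6 late libraries and 10 over the 9 early ones, with at least 1 in each of the 9. Its groups also overlapped, at a log2 fold change of 0.64 ± 0.63 (SE, unadjusted p = 0.371 by the same test).

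Some other genes of the microglia list, unlike the 7 defining ones, kept a substantial share of the CD level on both sides. Which cells of the homogenate held these transcripts was not tested, so their level is not read as a level of microglia. In early withdrawal 19 of the 36 genes stood under 10% of the CD level, 10 between 10 and 50% and 7 at 50% or more. The 19 were the 7 defining genes and others such as Itgam, Trem2 and Tyrobp. Those at 50% or more included Csf1r, Olfml3, Cd68, Unc93b1, Tgfbr1 and Mertk. Csf1r, the gene of the drug's own target, had between 52 and 89 counts in late depletion (median 70) and between 58 and 99 in early withdrawal (median 81), and in CPM it stood at 8.54 ± 1.36 (SD, n = 6) and 9.6 ± 1.5 (n = 9), against 16.2 ± 3.13 in CD (n = 3). Late depletion and early withdrawal overlapped over most of their ranges, with a higher mean in CD. The log2 fold change between the first 2 was 0.17 ± 0.12 (SE, 95% interval -0.08 to 0.42, unadjusted p = 0.167, adjusted p = 1). Pooled, Csf1r stood at 52.7% of CD in late depletion (45.9 to 60.6) and at 59.1% after withdrawal (52.2 to 66.9). The phagocytic receptor gene Mertk stood at 111% and 110%.

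**Figure D3:**
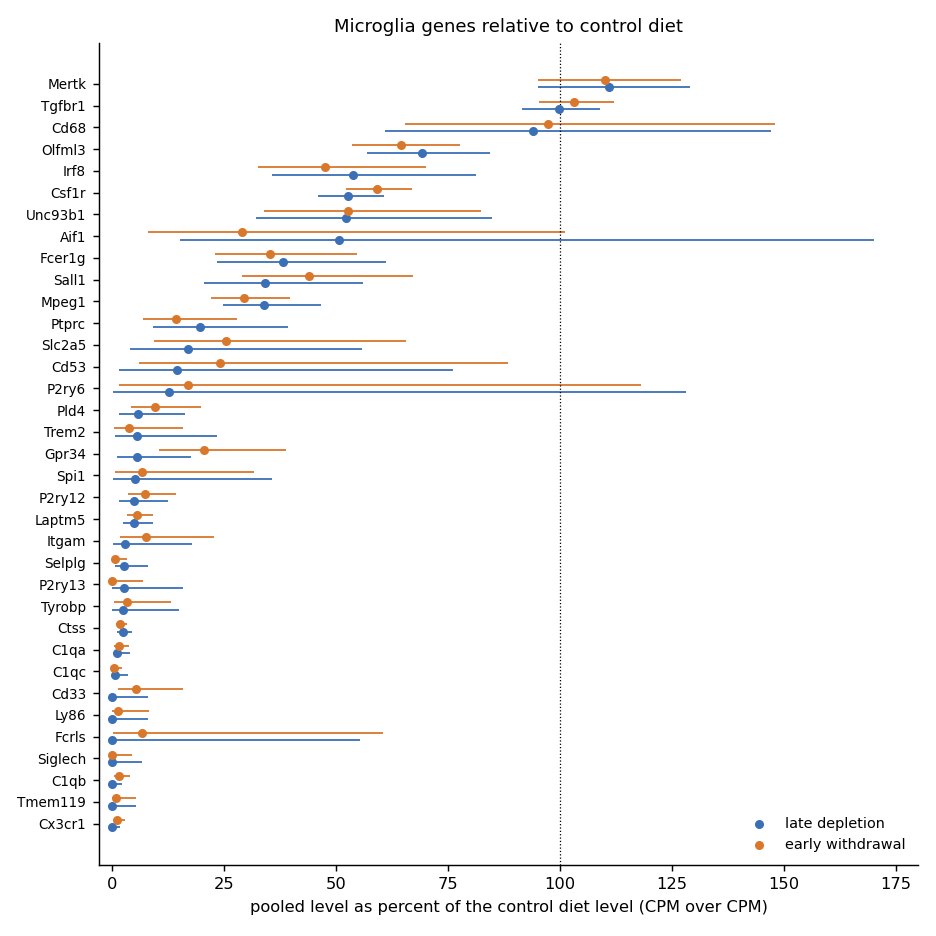
Pooled level of listed microglia genes as a percent of the CD level in late depletion (blue, 6 libraries) and early withdrawal (orange, 9 libraries), with 95% exact intervals for counting error. Genes are ordered by their late depletion share; the intervals of the pair overlap for every gene shown, and Mertk, Tgfbr1 and Cd68 lie at the CD level while Cx3cr1, Tmem119 and C1qb lie near 0.

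Each side was also placed against CD in a fit of all 3 conditions, with the detection filter set for the pair compared. Late depletion had 15 DEGs of 23541 genes tested (0.0637%) and early withdrawal 16 of 23056 (0.0694%), all of them lower than in CD, and all of them members of the microglia list. That list was chosen with earlier results of these data known, so this membership is no independent support. At an FDR of 0.05 there were 22 (0.0935%), 1 of them higher than in CD, and 21 (0.0911%), all lower. The 3 of smallest p were Ctss, C1qc and C1qa on both sides. Ctss had 60, 82 and 69 counts in CD, at most 7 in late depletion and at most 2 in early withdrawal, with a log2 fold change of -5.29 and -5.69 respectively. C1qa had 36, 24 and 33 counts in CD and at most 1 on either side. The 1 higher gene was Prss56, a serine protease gene, named after its values were seen. It had 32, 33 and 40 counts in CD and between 62 and 138 in late depletion, with a log2 fold change of 1.44 ± 0.27 (SE, FDR = 0.0251). In early withdrawal it had between 33 and 119 counts, overlapping both, at 0.94 ± 0.27 over CD (FDR = 0.714) and -0.50 ± 0.19 against late depletion (unadjusted p = 0.0134, adjusted p = 1). The CD libraries are shared by these 2 comparisons, so their values are given side by side only. Csf1r fell in both at an FDR of 0.05, with a log2 fold change of -0.92 ± 0.15 (SE, FDR = 0.00366) in late depletion and -0.75 ± 0.14 (FDR = 0.0147) in early withdrawal.

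No gene of other myeloid cells passed a test after withdrawal. Of 25 genes of other macrophages, monocytes and neutrophils, 15 could be tested, 0 had an unadjusted p under 0.05 and the median log2 fold change was 0.08. That median includes Mrc1 and Clec10a, which met the detection filter through early withdrawal alone, so no direction is read from it. The summed level of the 25 genes lay between 21.8 and 27.3 CPM in late depletion and between 21.8 and 29.5 CPM in early withdrawal. Mrc1, the mannose receptor of perivascular macrophages, had 1 count over the 6 late libraries and 6 counts in 5 of the 9 early libraries, so that it met the detection filter through early withdrawal alone and its fold change is not given. Ccr2, the chemokine receptor of inflammatory monocytes, was at 0 in late depletion and had 1 count in REPOP3 replicate 4. Ly6c2, another monocyte gene, was at 0 in late depletion and had 1 count in each of 3 early libraries, 2 of REPOP3 and 1 of REPOP5. The lysozyme gene Lyz2 held 13 and 23 counts over the 6 and 9 libraries. Ms4a7, a macrophage gene, was read at 3, 0 and 2 counts in DEP14, 2, 2 and 4 in DEP21, 7, 4 and 4 in REPOP3, 2, 4 and 4 in REPOP5 and 1, 4 and 3 in REPOP7 (log2 fold change 0.73 ± 0.45, SE, unadjusted p = 0.117). Clec10a, a lectin gene of macrophages and dendritic cells, held 2 and 9 counts over the 6 and 9 libraries. Cd74, the invariant chain, had 10 counts in late depletion and 7 in early withdrawal. Among 20 genes of activated or newly formed microglia, 16 could be tested and 0 had an unadjusted p under 0.05. Of these Apoe, a lipid carrier that Müller glia also make at a high level, had between 3155 and 4613 counts in late depletion and between 3029 and 4299 in early withdrawal (log2 fold change 0.07 ± 0.10, SE). Gpnmb, a lysosomal glycoprotein gene that pigment cells also use, had between 24 and 95 and between 15 and 55 counts. The groups overlapped for each of the 16, the secreted and lipid-handling genes Spp1, Lgals3 and Lpl among them.

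The cell cycle genes were at a few counts as well. Mki67 had 1 count over the 6 late libraries and 3 over the 9 early ones, Top2a had 1 and 5, Cdk1, the mitotic kinase, 6 and 12, and Ccnb1, its cyclin, 2 and 6. Summed over these 4 genes, the libraries held 3, 2 and 1 counts in DEP14, 0, 4 and 0 in DEP21, 4, 3 and 4 in REPOP3, 4, 1 and 3 in REPOP5 and 2, 2 and 3 in REPOP7. CD held 2, 1 and 2, REPOP10 held 5, 4 and 7 and REPOP14 held 11, 10 and 10. The early sums were thus within the range of late depletion and at or below those of REPOP10. The pooled ratio of early to late was 1.73 (0.808 to 4.02) and, without DEP21 replicate 3, 2.37 (0.955 to 7.05). Pooled over its 3 libraries, REPOP14 stood 6.17 times above late depletion (2.95 to 14.1).

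Of 48 cell cycle and DNA replication genes, 46 were tested, 23 with a positive and 23 with a negative log2 fold change, and the median was 0. The positive ones include Ccnb1, which met the detection filter through early withdrawal alone. At an unadjusted p under 0.05, 1 was higher and 1 lower, beside 1.42% and 1.9% of all genes tested. Bub1b, a spindle checkpoint kinase gene, had between 193 and 339 counts in late depletion (median 210.5) and between 236 and 327 in early withdrawal (median 279), a log2 fold change of 0.26 ± 0.10 (SE, unadjusted p = 0.0132, adjusted p = 1). It was at 287, 300 and 269 counts in CD. Foxm1, a transcription factor of mitotic entry, had a median of 11 counts and a median of 6 (log2 fold change -0.67 ± 0.26, unadjusted p = 0.0187). Cenpf, a kinetochore gene, had between 3 and 12 counts in late depletion and between 6 and 11 after withdrawal (0.56 ± 0.29, unadjusted p = 0.0664). The replication genes Pcna, with medians of 221 and 224 counts, and Mcm2, with medians of 107.5 and 93, overlapped over nearly the whole range. Their log2 fold changes were 0.03 ± 0.07 and -0.15 ± 0.10 (SE).

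**Figure D4:**
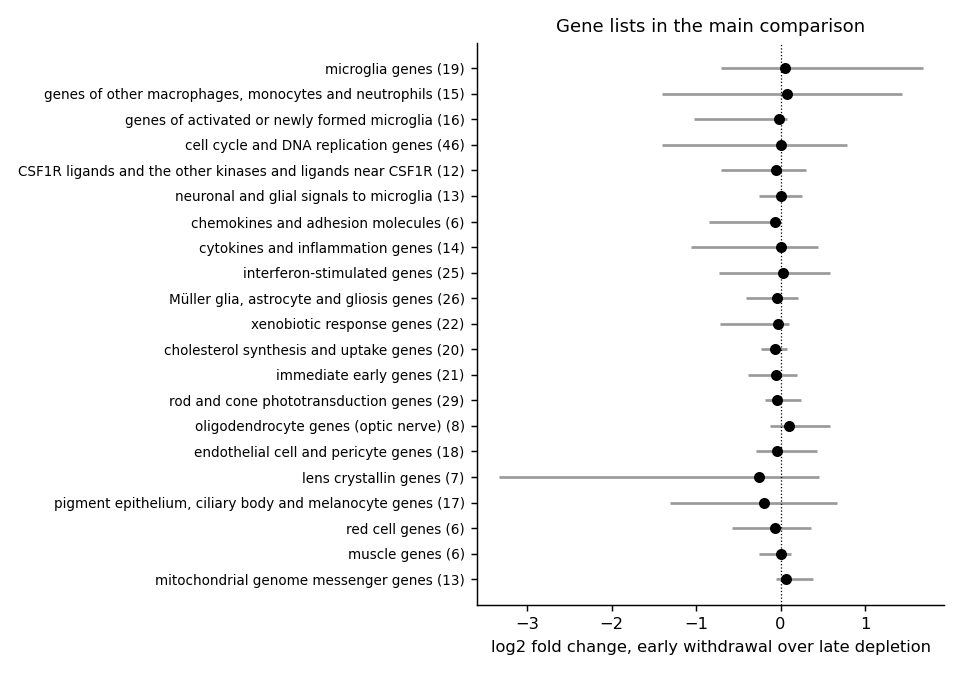
Median (point) and full range (line) of the log2 fold change of early withdrawal over late depletion for the tested members of 21 gene lists, with the number tested in parentheses. All medians lie between -0.26 and 0.10; the long line of the lens list is Cryba2, high in DEP14 replicate 2.

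Of 12 genes of CSF1R ligands and related kinases, 0 had an unadjusted p under 0.05 and the median log2 fold change was -0.05. Csf1 had between 46 and 75 counts in late depletion (median 61.5) and between 46 and 64 in early withdrawal (median 52), a log2 fold change of -0.17 ± 0.12 (SE, unadjusted p = 0.17). Il34, the main CSF1R ligand of neurons, had between 21 and 44 counts (median 33.5) and between 32 and 58 (median 38), a change of 0.28 ± 0.15 (unadjusted p = 0.074). Both ligands overlapped between the groups, and so did Flt3, a related receptor kinase, with 0.30 ± 0.17. Cx3cl1, the fractalkine ligand of Cx3cr1, had between 652 and 1062 counts and between 641 and 975 (-0.03 ± 0.09). Among 13 neuronal and glial signals to microglia, 0 had an unadjusted p under 0.05, and their log2 fold changes ran from -0.26 (Mif) to 0.25. Chemokine and adhesion genes were mostly at very low counts. Of 17 listed, 4 were at 0 in all 15 libraries, 11 held 3 counts or fewer over the 9 early libraries, 6 could be tested, and 0 had an unadjusted p under 0.05. Vcam1, an adhesion molecule, had between 100 and 133 counts and between 87 and 137. Selp, an endothelial selectin, had 1 count in each of 3 early libraries and 0 in late depletion, and Il6 1 count in each of 2.

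Reactive glial and inflammatory genes likewise gave no call. Gfap, the intermediate filament gene that Müller glia switch on under stress, had between 113 and 184 counts in late depletion (median 173) and between 113 and 187 in early withdrawal (median 148), against 83, 93 and 101 in CD. Late depletion and early withdrawal overlapped, and the log2 fold change between them was -0.13 ± 0.12 (SE, 95% interval -0.38 to 0.13, unadjusted p = 0.316). Against CD, Gfap did not pass an FDR of 0.05 on either side, with log2 fold changes of 0.80 ± 0.17 (FDR = 0.0808) and 0.67 ± 0.16 (FDR = 0.256). Of 26 Müller glia, astrocyte and gliosis genes, 0 had an unadjusted p under 0.05 and the median was -0.04. Of 19 cytokine and inflammation genes, 14 were tested and 0 had an unadjusted p under 0.05; Ptgs2 and Il1a stayed at 8 counts or fewer in each library. Of 25 interferon-stimulated genes tested the count was also 0, with Rsad2, an antiviral enzyme, at 0.59 ± 0.31 and Ifit1 at 0.46 ± 0.26 (SE).

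Genes that could answer to the drug itself were examined in the same way. Of 22 xenobiotic response genes tested, 0 had an unadjusted p under 0.05 and the median was -0.03; Por, the reductase that serves cytochrome P450 enzymes, had between 541 and 633 counts on the drug and between 527 and 677 off it. Of 20 cholesterol synthesis and uptake genes, 15 had a negative log2 fold change, and the median was -0.07 beside 0 over all genes tested. Only Lss (lanosterol synthase) had an unadjusted p under 0.05, at -0.18 ± 0.08, beside 1.9% of all genes lower at that p. Of 21 immediate early genes the count was 0, with Fos at -0.28 ± 0.15 (SE, unadjusted p = 0.0661). Of 29 phototransduction genes, 2 had an unadjusted p under 0.05, both lower after withdrawal, beside 1.9% of all genes lower at that p. Arr3, cone arrestin, had between 1759 and 2194 counts in late depletion and between 1498 and 2176 in early withdrawal (-0.18 ± 0.06, unadjusted p = 0.00573, adjusted p = 1). Pde6h, a cone phosphodiesterase subunit, had between 954 and 1204 and between 838 and 1134 (-0.18 ± 0.06, unadjusted p = 0.00972). Of 17 pigment epithelium and ciliary body genes tested, 3 were lower at an unadjusted p under 0.05, beside 1.9% of all genes, and the median was -0.20; 2 of them, Slc4a5 and Rdh5, were at -0.20 ± 0.08 and -0.36 ± 0.17, and the third was Optc, at 102 counts in DEP14 replicate 2 and at most 13 in the other 14 libraries. Of the lens list, Cryba2 alone had such a p, with 25 counts in the same library and at most 1 in each of the others, and it met the detection filter through late depletion alone. Of 18 vascular genes 1 did, the endothelial cadherin gene Cdh5, between 47 and 63 counts and between 33 and 59 (-0.29 ± 0.14). Beside it, 1.9% of all genes were lower at that p. Oligodendrocyte, red cell, muscle and mitochondrial messenger lists gave 0.

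The 10 genes of smallest p in the comparison are given as a ranking only, since none passed correction. They were mt-Ti, BC051142, Nox4, Slc5a8, Gm12355, Gm15507, Gm8601, mt-Tq, Sod3 and Trim55, with unadjusted p-values from 0.000344 to 0.00128. mt-Ti, a mitochondrial tRNA gene whose reads may be shared with overlapping mitochondrial transcripts, had between 21 and 27 counts in late depletion (median 26) and between 27 and 57 in early withdrawal (median 42), a log2 fold change of 0.67 ± 0.16 (SE). Slc5a8, a monocarboxylate transporter gene, had between 42 and 71 (median 52) and between 57 and 107 (median 80), a change of 0.53 ± 0.14. BC051142 had between 54 and 65 counts (median 58.5) and between 31 and 55 (median 39), a change of -0.51 ± 0.13. The change of mt-Tq, -2.74 ± 0.73, came from 1 library, DEP21 replicate 2, with 1576 counts against 22 to 80 in the other 14. Sod3, extracellular superoxide dismutase, had its highest count, 41, in DEP14 replicate 2. Gm12355 and Trim55 had at most 3 counts in any library, and passed the detection filter through early withdrawal alone.

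Nox4, which encodes a superoxide- and peroxide-forming NADPH oxidase and lies on chromosome 7 (GRCm38, 87246096 to 87398710), was the 1 gene of the 10 whose CPM ranges did not overlap. It had 1 count in each DEP14 library and 0, 0 and 1 in DEP21. It had 1, 4 and 5 counts in REPOP3, 4, 2 and 4 in REPOP5 and 3, 2 and 4 in REPOP7, and 4, 2 and 5 in CD. The separation was thin, since REPOP3 replicate 2 and 4 late libraries shared a count of 1 and differed only in library size. The log2 fold change was 2.08 ± 0.52 (SE, unadjusted p = 0.000594, adjusted p = 1). Over all genes tested, 3 (0.013%) did not overlap, 2 higher (0.00868%) and 1 lower (0.00434%). The others were Mbtd1, at a mean of 46.4 and 52.6 CPM, and Zfp235, at 19 and 16.4 CPM, named here after their values were seen.

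**Figure D5:**
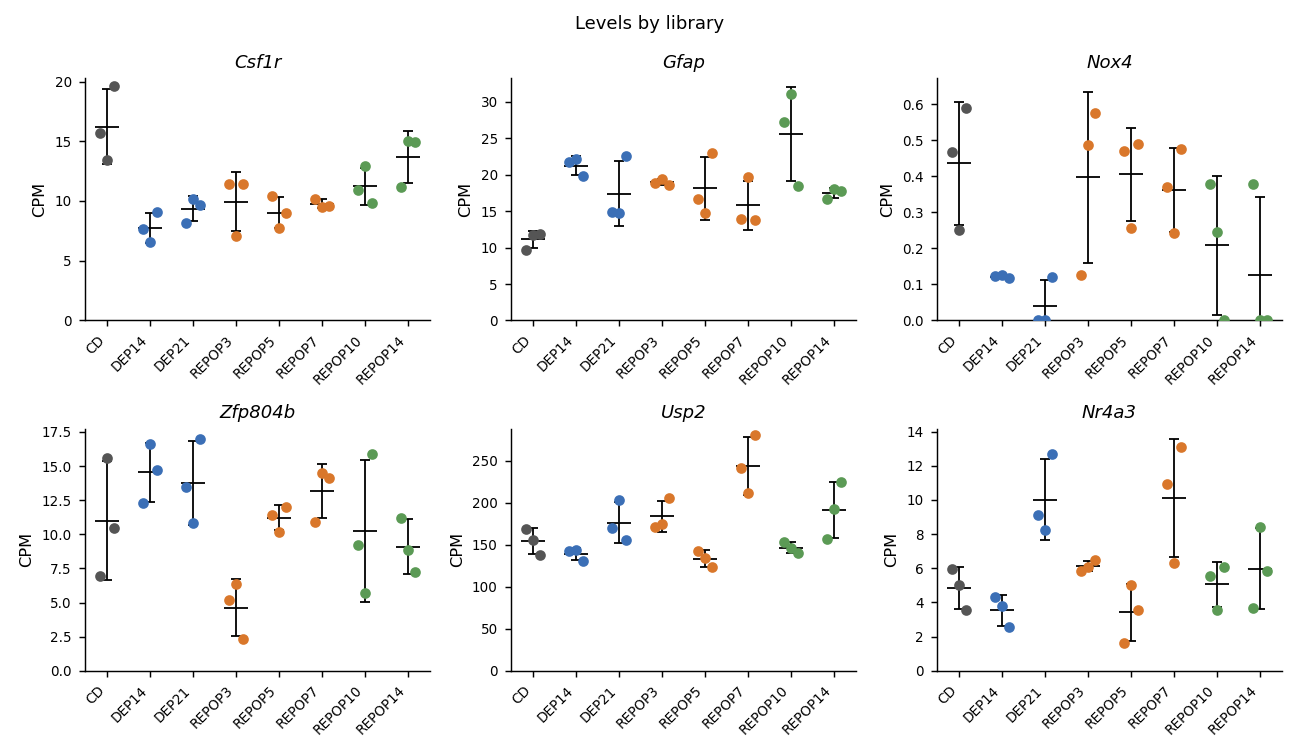
Levels of 6 genes by library (CPM), with the mean and SD of each group of 3 RE libraries as black bars. Csf1r and Gfap overlap between late depletion (blue) and early withdrawal (orange); Nox4 is near 0 in DEP14 and DEP21, Zfp804b is lowest in REPOP3 and Usp2 is highest in REPOP7.

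The 3 days were then taken singly against late depletion, in 1 fit of 5 groups. REPOP3 had 0 DEGs and 1 gene at an FDR of 0.05 among 23417 tested (0.00427%), with 1101 (4.7%) at an unadjusted p under 0.05. This was Zfp804b, a zinc finger gene on chromosome 5 (GRCm38, 6769010 to 7344756). It had 100, 132 and 126 counts in DEP14 and 102, 95 and 139 in DEP21. It had 41, 52 and 20 counts in REPOP3, all below the lowest late library as in 1.43% of genes, and then 97, 79 and 98 in REPOP5 and 88, 119 and 119 in REPOP7. CD held 59, 124 and 89. The log2 fold change of REPOP3 was -1.61 ± 0.23 (SE, FDR = 0.0359). REPOP3 replicate 4, the library apart on the second component, had the lowest value, 20. The call was lost without any 1 of DEP14 replicates 3 and 4, DEP21 replicates 2 and 4, REPOP5 replicates 3 and 4 or REPOP7 replicate 6, with 0 genes at an FDR of 0.05, as with edgeR's expression filter. Without REPOP3 replicate 3 there was 1 DEG, and without DEP14 replicate 2 or REPOP3 replicate 2 there were 3 genes at an FDR of 0.05. Xkr4, Lnpep, Pcdh15 and Fzd3, named after their values were seen, were among the genes next in rank and did not pass. Xkr4 had 21, 16 and 23 counts in REPOP3 against 32 to 55 in late depletion (-1.32 ± 0.21, SE, FDR = 0.0614). mt-Ti and Slc5a8 were higher in all 3 REPOP3 libraries than in any late library, as were 1.02% of genes, at log2 fold changes of 0.91 ± 0.19 and 0.78 ± 0.16 (FDR = 0.348 for both).

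REPOP5 had 0 DEGs and 0 genes at an FDR of 0.05 among 23377 (0%), with 551 (2.36%) at an unadjusted p under 0.05. REPOP7 had 0 and 0 among 23442 (0%), with 611 (2.61%) at an unadjusted p under 0.05. Its lowest FDR, 0.0918, was that of Usp2, a deubiquitinase gene with a daily rhythm in many tissues, named after its value was seen. Usp2 had 1159, 1150 and 1122 counts in DEP14, 1285, 1776 and 1276 in DEP21, 1341, 1435 and 1772 in REPOP3, 1218, 1035 and 1005 in REPOP5 and 1956, 1733 and 2359 in REPOP7. In CPM the REPOP7 libraries were above all the others of these 5 groups, as were 0.853% of genes against late depletion, at a log2 fold change of 0.63 ± 0.10 (SE) over late depletion. The same gene had the lowest FDR, 0.101, when REPOP7 was compared with REPOP3 and REPOP5, where 0 of 23417 genes (0%) were DEGs, 0 passed an FDR of 0.05 and 704 (3.01%) had an unadjusted p under 0.05. The microglia list had a median log2 fold change of -0.10 in that comparison, and none of its members had an unadjusted p under 0.05.

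DEP21 and DEP14, both on the drug diet, gave no call either. Among 23261 genes tested 0 were DEGs, 0 passed an FDR of 0.05 (0%) and 689 (2.96%) had an unadjusted p under 0.05. Among the leading genes, named after its values were seen, was Nr4a3, an immediate early nuclear receptor gene, with 35, 30 and 22 counts in DEP14 and 69, 72 and 104 in DEP21 (log2 fold change 1.46 ± 0.31, SE, FDR = 0.994). It had 46, 50 and 56 counts in REPOP3, 14, 39 and 29 in REPOP5 and 88, 52 and 110 in REPOP7, so that its early and late ranges overlapped and its pooled change was -0.04 ± 0.33.

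The series holds 7 further libraries of these 5 groups whose titles end in re, 5 of early withdrawal (1 REPOP3, 1 REPOP5 and 3 REPOP7) and 2 of late depletion (1 DEP14, 1 DEP21). Their sums over the 7 defining microglia genes were 1 and 5 counts in late depletion and 4, 2, 7, 8 and 8 counts in early withdrawal, the last 3 being REPOP7. The REPOP7 libraries were thus above both late depletion libraries, and the REPOP3 and REPOP5 libraries between them. The 4 cell cycle genes held 1 and 2 counts, and 3, 2, 6, 3 and 1. Gpr34 had 2 counts in both late depletion libraries and 1, 0, 2, 1 and 2 in early withdrawal, with a log2 fold change of -0.68 ± 1.05 (SE). The RE effect of Gpr34 less the re effect was 2.38 ± 1.14 on the log2 scale (SE, unadjusted p = 0.0457, adjusted p = 1 by edgeR's quasi-likelihood test). For Pld4 this difference was 2.45 ± 1.40 (SE, unadjusted p = 0.106 by the same test).

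In the re libraries 14 of 25289 genes were DEGs (0.0554%), 7 higher and 7 lower after withdrawal, but the leading ones rested on 1 or 2 libraries. The 3 lower DEGs of smallest p were the crystallin genes Cryaa, Crybb2 and Cryba1, with 188, 107 and 54 counts in the DEP14 library and at most 1 in the DEP21 library. The 3 higher DEGs of smallest p were Gpx3, Fbln1 and Optc, genes that also stood high beside crystallins in DEP14 replicate 2 of the RE libraries. Gpx3 had 322 and 290 counts in 2 REPOP7 libraries and between 25 and 44 in the other 5. Two-sided exact permutation tests of these 6 genes, with the tail doubled, gave p-values from 0.0952 to 0.667. The lower value is the smallest that this form of the test allows with 5 against 2 libraries. There were 2 DEGs without the DEP14 library, 6 without the DEP21 library, 8 without the REPOP5 library and 6 without REPOP7 replicate 3. With edgeR's robust fit, added after the data were seen, there were 0. A test of the difference in effect between the suffixes gave 0 genes at an FDR of 0.05 and 624 at an unadjusted p under 0.05 (edgeR's quasi-likelihood test). In the re libraries 2315 of the genes tested (9.15%) did not overlap between the groups, 4.59% higher and 4.56% lower. Arr3, picked after its values were seen, was among them, at 2042 and 2223 counts in late depletion and between 1678 and 2025 in early withdrawal (-0.17 ± 0.05, SE, FDR = 0.323), and so was Il34, at 36 and 30 counts and between 42 and 48. With 9.15% of genes not overlapping, neither gene is read as support for its RE values.

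Of the 10 leading genes of the RE comparison, 4 had the same direction in the re libraries, 5 the opposite and 1 could not be tested. The leader, mt-Ti, counted as the same direction, was at a log2 fold change of 0 ± 0.35 (SE), and Slc5a8 at -0.01 ± 0.20. Nox4 had 0 counts in both late depletion libraries and 1, 1, 5, 3 and 2 counts in the 5 early withdrawal libraries. Its p was 0.0952 by exact permutation, two-sided with the tail doubled, as small as that test allows here. The 2 CD libraries of that suffix had 2 and 1 counts. With late depletion at 0, Nox4 entered the test of the re libraries through early withdrawal alone and could come out only higher, so its direction there is no support. Across the RE libraries of earlier diet days Nox4 lay between 1 and 5 counts at 2 days, 1 and 5 at 5 days, 0 and 4 at 7 days and 2 and 3 at 10 days. It was at 3, 2 and 0 counts in REPOP10, 3, 0 and 0 in REPOP14 and 2, 1 and 3 in REPOP21. The 4 libraries of REPOP60, all of suffix re, had 2, 6, 3 and 2 counts. Late depletion stood below CD at a log2 fold change of -2.24 ± 0.62 (SE, FDR = 0.63) and early withdrawal at -0.16 ± 0.45, so no comparison of Nox4 passed correction.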

How the data were processed

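Retinal RNA was sequenced by the authors as 50 base single-end reads, and the submitters' processing notes name HISAT2, HTSeq and StringTie with the mouse build mm10. The strand setting and the batches were not given in the sources used here. The deposited counts are whole reads per gene (50686 rows, 50376 matched to GENCODE M21 symbols, 0 rows naming no gene), and the deposited FPKM values, normalized by the authors, were used only as an alternative. Groups came from the labels. Genes with at least 1 count in 0.5 or more of the libraries of either side were tested with edgeR 4.0.16 (R 4.3.3; TMM, quasi-likelihood, group as the only term), with Benjamini-Hochberg adjustment over all of them. Other comparisons used the same test, those by day with all 5 groups in 1 fit.

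Pooled shares of CD and ratios carry 95% exact (Clopper-Pearson) intervals, and the floor is 3 counts. Where single genes were tested in the re libraries, the test was an exact permutation test of CPM. DESeq2 1.42.0, limma 3.58.1 on log2(FPKM + 1 or 0.1), other filters and normalizations, blocks and left-out libraries were alternatives. The main fit was tested on simulated data, with changes placed only in genes of at least 10 counts on average. That test does not cover genes at a few counts, such as the defining microglia genes. The members and gene lists were chosen with earlier results of these data known. Genes were named by rule: the 10 of smallest p (no gene passed), for other comparisons all DEGs or the 3 higher and 3 lower of smallest p, up to 4 tested members of smallest p per list, and a set of marker genes. Others are said to be named after their values were seen. Replicate pairs of the same group differed beyond sampling noise in each of 15 pairs (chi-square per gene 2.5 to 17.2), and no library was counted as a repeat. Python 3.11.15, pandas 2.3.3, scipy 1.17.1 and matplotlib 3.10.9 were used for summaries. Some genes of the lists are not reported here by name.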

Additional observations from a re-analysis of the deposited data

Results flagged for a closer look

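Within late depletion (n = 6) and early withdrawal (n = 9), 207 sets of CPM values were checked for a library whose gap to the next exceeded Dixon's 95% limit, and 23 had one, each time the highest. That limit gives such a gap by chance in about 1 in 20 groups only for independent, normally distributed values. Some of these sets are at a few counts, and list sums share genes with single-gene sets. The number flagged is therefore not read against that rate. Values below are CPM.

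In late depletion, DEP14 replicate 2 was apart in the summed lens crystallin genes at 48.6 (next library 2.64) and in Optc, an eye matrix protein, at 12.5. It was also apart in the lens gene Cryba2 at 3.08, in Sod3 at 5.04 and in the muscle gene Ckm at 5.91. Its summed genes of activated or newly formed microglia stood at 1164 (next 1011). That sum was 992 to 1059 in CD and includes Apoe, which Müller glia also make at a high level. DEP14 replicate 3 was apart in Cenpf at 1.51 and in the complement gene C3 at 3.77. DEP14 replicate 4 was apart in Insig1, a regulator of cholesterol synthesis, at 66.9. DEP21 replicate 2 was apart in mt-Tq at 208 (next 6.73). DEP21 replicate 3 was apart in the summed neuronal and glial signals to microglia at 873. DEP21 replicate 4 was apart in the summed endothelial cell and pericyte genes at 581, in the summed red cell genes at 25.1, in the globin gene Hbb-bs at 16.5 and in the muscle gene Actn3 at 1.1.

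In early withdrawal, REPOP3 replicate 4 was apart in the summed signals to microglia at 849, in the summed Müller glia, astrocyte and gliosis genes at 4363 (next 3983), in Mif at 63.6 and in mt-Tq at 9.24. REPOP3 replicate 2 was apart in the summed lens crystallin genes at 7.0 and in the mitochondrial gene mt-Nd2 at 6084. REPOP7 replicate 6 was apart in Fos at 32.7 and in the globin gene Hba-a1 at 2.73.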

How the results depend on the processing

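The count of DEGs between early withdrawal and late depletion was 0 under every alternative run, and genes at an unadjusted p under 0.05 numbered from 417 (edgeR's expression filter) to 1296 (first principal component as a covariate, added after the data were seen). At an FDR of 0.05, log2 FPKM values gave 1 gene with a pseudocount of 1 and 1 with 0.1. Over 104 named genes and 34 alternatives, 3437 of 3478 log2 fold changes kept their direction or stayed within 1 SE, 41 changed sign beyond it and 0 calls changed.

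For REPOP3, the likelihood ratio test gave 7 DEGs and 10 genes at an FDR of 0.05, and edgeR's expression filter gave 0 of the latter. That test gave 2 genes at an FDR of 0.05 for REPOP7 and 7 for REPOP7 against REPOP3 and REPOP5. The expression filter, under which fewer genes are tested, gave 9 DEGs and 10 genes at an FDR of 0.05 for late depletion against CD, 9 and 11 for early withdrawal against CD, and 0 and 1 in the re libraries, where the robust fit gave 0 and 7.

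Leaving out 1 library at a time gave 0 to 1 DEGs and 0 to 3 genes at an FDR of 0.05 for REPOP3, and 0 to 1 genes at an FDR of 0.05 each for REPOP7, REPOP7 against REPOP3 and REPOP5, and DEP21 against DEP14. It gave 2 to 12 DEGs and 4 to 31 genes at an FDR of 0.05 in the re libraries, 11 to 16 and 16 to 22 for late depletion against CD, and 11 to 16 and 14 to 22 for early withdrawal against CD.

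A block for the replicate number gave 0 DEGs in the main comparison with 853 genes at an unadjusted p under 0.05, 0 genes at an FDR of 0.05 for REPOP3, and 14 and 12 DEGs for late depletion and early withdrawal against CD. A block for the order of the title numbers also gave 0 genes for REPOP3. The numbers are shared labels only: same-numbered libraries correlated between -0.553 and 0.618 over 22 pairs, and 12 of 36 correlated best with their own number. Under 1 CPM, depth limits what could be detected.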
